A study of Mus musculus with 7 samples.

Results

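Astrocytes are the glial cells that surround synapses and wrap blood vessels, and 40 genes that mark them or serve their main tasks were followed here in ribosome-bound RNA of the mouse medial prefrontal cortex (mPFC). The genes were chosen by name, matched exactly to the gene symbol of probe sets that carry 1 symbol. Of the 40, 38 were measured among 22180 named genes. No probe set with the single symbol Prdx6 was listed in the annotation used here, and the probe set of Entpd2 also names Npdc1, so neither has a value.

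The mice carried a Cre-dependent GFP tag on their ribosomes together with an ArcCre transgene, in which Cre follows the promoter of the activity-regulated gene Arc, and all were given tamoxifen. Cells active during the stimulus were thereby tagged, and their ribosomes were pulled from mPFC with an anti-GFP antibody. The cocaine group (4 arrays, numbered 4, 5, 6 and 7) received 15 mg/kg cocaine for 2 days, and the shock group (3 arrays, numbered 4, 5 and 6) received 20 shocks of 0.5 mA and 2 s for 2 days. Strain, age and sex are not given in the labels, nor is whether an array holds 1 animal or a pool. The spread between arrays, on which every p-value rests, may then be partly technical. Input RNA and control precipitates were not used here, so enrichment of a transcript in the precipitate cannot be stated.

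Astrocytes clear glutamate and GABA from the synapse, buffer potassium and water at their endfeet on vessels, and couple to each other through gap junctions. They convert glutamate to glutamine, which neurons take back up, and they supply lactate, lipids and synapse-organizing proteins. Arc is known chiefly as a gene of active excitatory neurons.

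Values are log2 expression values on 1-colour Affymetrix arrays, and differences are cocaine minus shock, so that 1 unit is a 2-fold change and a negative value is lower in the cocaine group. All 38 genes had a mean above 5.46, a level under which 95% of 1394 olfactory and vomeronasal receptor genes lie and which stands in for background. The lowest was Gjb6 with a mean of 5.96. The label of the list thus holds as far as detection goes, although transcripts of neurons were present as well. Cocaine array 6 stood apart over all genes, with a mean distance to the other arrays of 37.2 against 27.5 to 29.6 for the rest, and the main counts are also given without it.

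All 38 astrocyte genes had a lower mean in the cocaine group, against 49.1% of all genes lower and 50.9% higher there, but none passed the correction over all genes. The median difference was -0.14 on the log2 scale (a 1.10-fold change), where the median of all genes was 0.0016. Differences ran from -0.32 for Slc39a12, a zinc transporter, to -0.032 for Aldh1l1, a folate enzyme widely used as an astrocyte marker. With limma and Benjamini-Hochberg adjustment, 0 of the 38 and 0 of the 22180 genes had an adjusted p under 0.05 (percent called 0, smallest adjusted p = 0.938). At an unadjusted p under 0.05 there were 3 lower astrocyte genes, where 1.57% of all genes were lower by that rule, and 0 higher ones, where 1.53% of all genes were higher. The groups did not overlap for 2 genes, both lower in the cocaine group, against 1.11% of all genes, and for 0 higher ones, against 1.25%. Because the 38 genes share the same 7 arrays and varied together on them, these counts are not 38 separate observations. The RNA was a ribosome precipitate of many cells, without input or control precipitates here. Fewer cells of a type, less RNA per cell and a smaller share of that type in the precipitate cannot be told apart.

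**Figure D1:**
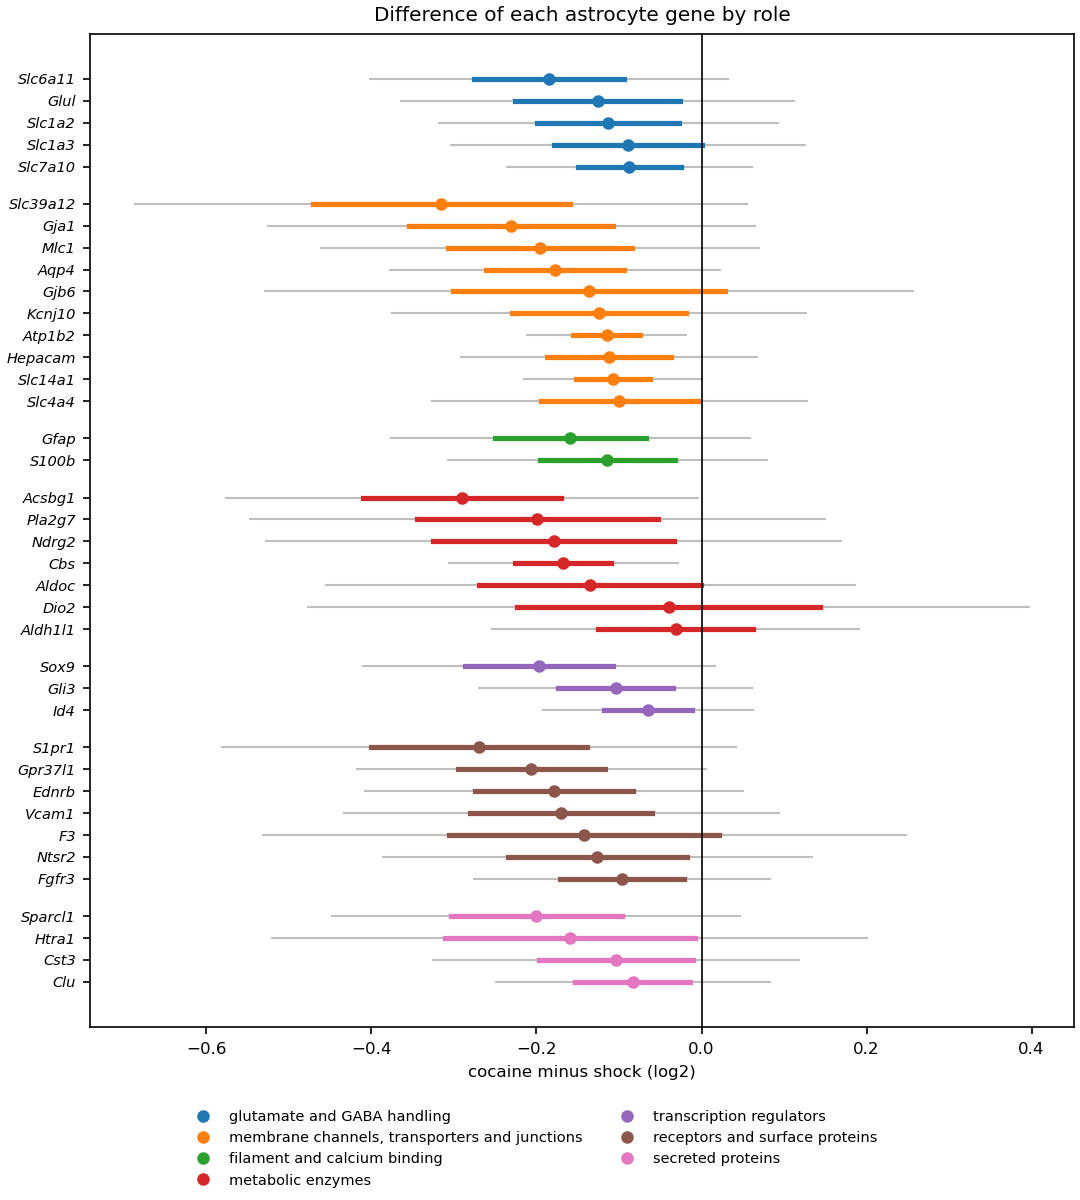
Difference between the groups for each of the 38 measured astrocyte genes (x axis, cocaine minus shock, log2), grouped by role. Dots are differences, thick bars 1 standard error and thin bars 95% confidence intervals from limma. Every dot lies below 0, from -0.32 to -0.032.

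Transporters and enzymes grouped under glutamate and GABA handling were lower in 5 of 5 genes, with a median of -0.11, and none had an unadjusted p under 0.05. This group includes Slc7a10, which carries other amino acids. Slc1a2 encodes the main glutamate transporter of the forebrain, and it had 10.91, 11.06, 10.78 and 10.93 on cocaine arrays 4 to 7, against 10.97, 11.19 and 10.94 on shock arrays 4 to 6. Its difference was -0.11 (SE 0.086; limma, unadjusted p = 0.232, adjusted p = 0.938), and cocaine array 5 lay above shock arrays 4 and 6, so the groups overlapped. The second astrocyte glutamate transporter, Slc1a3, had 10.46, 10.80, 10.68 and 10.63 on cocaine arrays 4 to 7, against 10.65, 10.86 and 10.68 on shock arrays 4 to 6. That gave a difference of -0.089 (SE 0.090; limma, unadjusted p = 0.355, adjusted p = 0.938), with a 95% confidence interval of -0.30 to 0.12. Of the other genes, the GABA transporter gene Slc6a11 differed by -0.18, the glutamine synthetase gene Glul by -0.13, and Slc7a10, a carrier of small neutral amino acids, by -0.087. Without shock array 5 the differences of Slc1a2 and Slc1a3 were -0.036 and -0.022.

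Among membrane channels, transporters and junction proteins, 10 of 10 genes were lower, with a median of -0.13. In this group 1 gene had an unadjusted p under 0.05, where 1.57% of all genes were lower by that rule. Both of the genes without overlap were in this group. Atp1b2, the beta-2 subunit of the sodium pump, had 11.04, 11.10, 10.99 and 10.98 on cocaine arrays 4 to 7, against 11.14, 11.16 and 11.13 on shock arrays 4 to 6. It averaged 11.03 ± 0.057 over the 4 cocaine arrays and 11.14 ± 0.015 over the 3 shock arrays (mean ± SD, n = 4 and 3), a difference of -0.11 (SE 0.040; limma, unadjusted p = 0.0261, adjusted p = 0.938). Every cocaine array lay below every shock array for this gene, by a narrow margin. Slc14a1, a urea transporter, likewise separated the groups, with 7.62, 7.66, 7.62 and 7.57 on cocaine arrays 4 to 7, against 7.66, 7.81 and 7.71 on shock arrays 4 to 6. The difference was -0.11 (SE 0.045; limma, unadjusted p = 0.0504, adjusted p = 0.938), and the gap between the nearest arrays of each group was smaller than the spread within them.

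The water channel and gap junction genes of astrocytes overlapped between the groups. Aqp4, the water channel of the endfeet, had 9.02, 9.32, 9.13 and 9.09 on cocaine arrays 4 to 7, against 9.19, 9.40 and 9.35 on shock arrays 4 to 6. Its difference was -0.18 (SE 0.084; limma, unadjusted p = 0.0731, adjusted p = 0.938), and cocaine array 5 lay above shock array 4. Gja1, which encodes the main gap junction protein of astrocytes, had 9.08, 9.34, 9.30 and 9.06 on cocaine arrays 4 to 7, against 9.18, 9.48 and 9.63 on shock arrays 4 to 6. The difference of -0.23 (SE 0.12; limma, unadjusted p = 0.106, adjusted p = 0.938) became -0.13 without shock array 6, and it was -0.36 without shock array 4. Shock array 4 lay below cocaine arrays 5 and 6 for this gene.

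Gjb6, the gene of a further astrocyte connexin, differed by -0.14, a value set by cocaine array 7 at 5.43, under the background level. The 3 other cocaine arrays had 6.02 to 6.14 and the shock arrays 6.02 to 6.06, and without cocaine array 7 the difference was 0.021. Mlc1, a membrane protein of the endfeet whose human gene is mutated in a leukodystrophy with cysts, differed by -0.20. Its binding partner Hepacam differed by -0.11, the potassium channel gene Kcnj10 by -0.12 and the bicarbonate cotransporter gene Slc4a4 by -0.10. Slc39a12 had the largest difference of the 38, at -0.32 (SE 0.16; limma, unadjusted p = 0.0839, adjusted p = 0.938), and it was -0.19 without shock array 6.

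**Figure D2:**
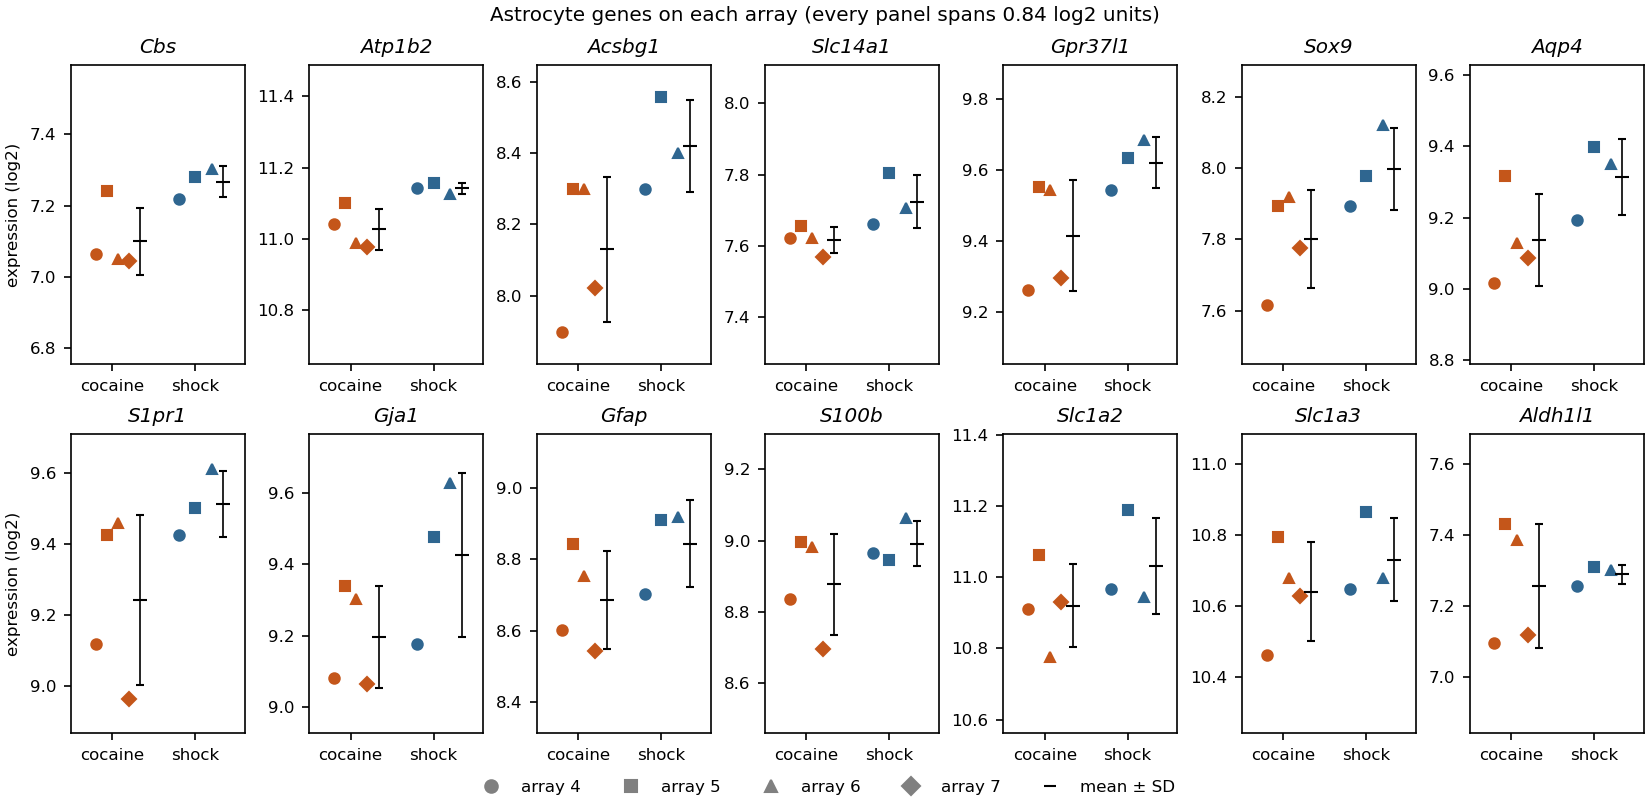
Log2 expression (y axis) of 14 astrocyte genes on each array, with cocaine arrays left of shock arrays, symbols for the array number and black bars for mean ± SD (n = 4 and 3). Of these genes, Atp1b2 and Slc14a1 have no overlap between the groups, while cocaine arrays 4 and 7 lie low in most panels.

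The classical astrocyte markers Gfap and S100b were lowest on the same cocaine arrays, 4 and 7. Gfap, the intermediate filament of astrocytes, had 8.60, 8.84, 8.75 and 8.54 on cocaine arrays 4 to 7, against 8.70, 8.91 and 8.92 on shock arrays 4 to 6. It differed by -0.16 (SE 0.091; limma, unadjusted p = 0.126, adjusted p = 0.938). S100b, a calcium-binding protein, had 8.84, 9.00, 8.98 and 8.69 on cocaine arrays 4 to 7, against 8.96, 8.95 and 9.06 on shock arrays 4 to 6, and differed by -0.11 (SE 0.081; limma, unadjusted p = 0.206, adjusted p = 0.938). Cocaine arrays 5 and 6 lay within the range of the shock arrays for both genes, and cocaine array 7 was the lowest of the 7 arrays. Without cocaine array 7, S100b differed by -0.053.

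Genes grouped as metabolic enzymes held 2 of the 3 with an unadjusted p under 0.05, where 1.57% of all genes were lower by that rule. All 7 measured members were lower, with a median of -0.17. Cbs, the cystathionine beta-synthase of the transsulfuration pathway, had 7.07, 7.24, 7.05 and 7.05 on cocaine arrays 4 to 7, against 7.22, 7.28 and 7.30 on shock arrays 4 to 6. Cocaine arrays 4, 6 and 7 lay together below all shock arrays, while cocaine array 5 lay within the shock range. The difference was -0.17 (SE 0.058; limma, unadjusted p = 0.0248, adjusted p = 0.938). Acsbg1, an acyl-CoA synthetase for long-chain fatty acids, had 7.90, 8.30, 8.30 and 8.02 on cocaine arrays 4 to 7, against 8.30, 8.56 and 8.40 on shock arrays 4 to 6. Its difference was -0.29 (SE 0.12; limma, unadjusted p = 0.0475, adjusted p = 0.938), and cocaine arrays 5 and 6 had the same value as shock array 4.

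Aldh1l1 was the gene with the smallest difference, with 7.10, 7.43, 7.38 and 7.12 on cocaine arrays 4 to 7, against 7.26, 7.31 and 7.30 on shock arrays 4 to 6. The shock arrays lay in the middle of the cocaine arrays, and the difference was -0.032 (SE 0.094; limma, unadjusted p = 0.747, adjusted p = 0.970), with a 95% confidence interval of -0.25 to 0.19. It became 0.022 without cocaine array 4, and it was 0.014 without cocaine array 7. Dio2, which activates thyroid hormone, differed by -0.040, but by 0.12 without shock array 5 and 0.045 without cocaine array 6. High values on cocaine array 5 and shock array 5 (8.38 and 8.36) set Dio2 apart from its other arrays, at 7.74 to 7.97. The remaining genes of this group were Pla2g7, which degrades platelet-activating factor (-0.20), the brain aldolase Aldoc (-0.13) and Ndrg2 (-0.18). Ndrg2 was grouped with the enzymes here without an enzyme activity being shown.

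The promoters of Cbs and Acsbg1 are shown because these genes had an unadjusted p under 0.05, and that of Slc1a3 because no other promoter of these genes held both the SOX core and the STAT element. Sequences are the 250 bases before the gene start from RefSeq (GRCm38.p6), given 5′ to 3′ on the strand of the gene. Capitals mark the SOX core (ACAAT), the NFI motif (TTGGC) and the STAT element (TTCNNNGAA), searched on both strands, and no marked motif overlaps another in these 3 promoters. SOX9, NFI and STAT3 are transcription factors known for roles in astrocyte development.
Cbs, chr17:31637206-31637455, minus strand: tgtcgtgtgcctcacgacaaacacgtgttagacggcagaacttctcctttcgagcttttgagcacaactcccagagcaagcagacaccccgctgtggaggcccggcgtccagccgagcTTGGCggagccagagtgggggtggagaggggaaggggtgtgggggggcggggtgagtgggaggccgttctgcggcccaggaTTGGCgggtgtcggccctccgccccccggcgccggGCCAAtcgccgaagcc
Acsbg1, chr9:54661886-54662135, minus strand: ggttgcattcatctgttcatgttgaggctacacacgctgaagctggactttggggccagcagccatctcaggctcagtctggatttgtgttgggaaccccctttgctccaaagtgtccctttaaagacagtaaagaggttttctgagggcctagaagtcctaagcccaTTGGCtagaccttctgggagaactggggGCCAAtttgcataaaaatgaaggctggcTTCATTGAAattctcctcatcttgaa
Slc1a3, chr15:8710808-8711057, minus strand: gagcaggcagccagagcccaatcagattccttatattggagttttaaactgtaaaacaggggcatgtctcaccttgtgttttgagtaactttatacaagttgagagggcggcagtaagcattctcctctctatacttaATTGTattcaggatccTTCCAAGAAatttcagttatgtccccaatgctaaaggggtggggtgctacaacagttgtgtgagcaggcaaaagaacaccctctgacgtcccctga

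Of the 38 genes, 30 had a promoter in that table, with 35 promoters in all. The NFI motif stood in 51.4% of these promoters (16 genes), against 41.5% of all 32851 promoters of the same length, and in the Cbs promoter it stood 3 times. The STAT element stood in 14.3% (5 genes), against 7.02% of all promoters, and Acsbg1, Aldoc, Ntsr2, Pla2g7 and Slc1a3 held it. The SOX core stood in 5.71% (Aldoc and Slc1a3), against 27.7%. An E-box (CANNTG, both strands) stood in 60.0% against 66.2%, and a TATA element (TATAAA, both strands) in 11.4% against 12.4%. The short motifs depend on base composition, and the median GC content was 56.8% in the 35 promoters and 52.4% in all. These matches describe the letters and say nothing of binding.

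The transcription regulators were lower in 3 of 3 genes, with a median of -0.10. Sox9, a transcription factor of glial fate that adult astrocytes keep, had 7.62, 7.89, 7.92 and 7.77 on cocaine arrays 4 to 7, against 7.89, 7.98 and 8.12 on shock arrays 4 to 6. Cocaine array 5 shared its value with shock array 4, and cocaine array 4 was the lowest. The difference was -0.20 (SE 0.090; limma, unadjusted p = 0.0654, adjusted p = 0.938). Gli3, a mediator of Hedgehog signalling, differed by -0.10 (-0.033 without shock array 6), and Id4, an inhibitor of basic helix-loop-helix factors, by -0.065.

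Receptors and surface proteins were lower in 7 of 7 genes, with a median of -0.17. Gpr37l1, an orphan G protein-coupled receptor of glia, had 9.26, 9.55, 9.54 and 9.30 on cocaine arrays 4 to 7, against 9.54, 9.63 and 9.68 on shock arrays 4 to 6. Its difference was -0.21 (SE 0.089; limma, unadjusted p = 0.0549, adjusted p = 0.938), with cocaine arrays 5 and 6 at the level of shock array 4 and cocaine arrays 4 and 7 far below. S1pr1, a sphingosine 1-phosphate receptor that endothelial cells also carry, had 9.12, 9.43, 9.46 and 8.97 on cocaine arrays 4 to 7, against 9.43, 9.50 and 9.61 on shock arrays 4 to 6. That was a difference of -0.27 (SE 0.13; limma, unadjusted p = 0.0793, adjusted p = 0.938), with cocaine array 5 level with shock array 4 and cocaine array 7 the lowest. Ednrb, an endothelin receptor, differed by -0.18, the adhesion molecule gene Vcam1 by -0.17, the neurotensin receptor gene Ntsr2 by -0.13 and the growth factor receptor gene Fgfr3 by -0.096. F3, the tissue factor that starts coagulation, differed by -0.14, but by -0.0080 without cocaine array 7.

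Secreted proteins were lower in 4 of 4 genes, with a median of -0.13 and no unadjusted p under 0.05. Sparcl1, a synapse-organizing matrix protein, averaged 12.05 ± 0.16 over the 4 cocaine arrays and 12.25 ± 0.14 over the 3 shock arrays (mean ± SD, n = 4 and 3), a difference of -0.20. The serine protease gene Htra1 differed by -0.16, the cysteine protease inhibitor gene Cst3 by -0.10 and the clusterin gene Clu by -0.083. Another probe set was present for 3 of the 38 genes, Cst3, Glul and Dio2, and in each it was lower in the cocaine group too (-0.18, -0.072 and -0.038).

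The 38 genes were high or low on the same arrays, within each group as well as between them. Cocaine array 7 lay below the mean of the gene for 38 of 38 genes and cocaine array 4 for 37, whereas cocaine array 5 lay above it for 36 and shock array 5 for 37. Over all genes these shares stood close to even, with 49.3% to 51.5% of genes above their mean on each array. The lowest of the 7 values was on cocaine array 4 for 20 genes (52.6%), on cocaine array 7 for 15 (39.5%) and on cocaine array 6 for 3 (7.89%). Of all genes, 12.7%, 12.6% and 20.8% had their lowest value on these arrays. The highest was on shock array 6 for 19 genes (50%), on shock array 5 for 12 (31.6%), on cocaine array 5 for 6 (15.8%) and on shock array 4 for 1 (2.63%). Of all genes, 15.7%, 11.7%, 11.8% and 12.2% had their highest value there.

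The range of the cocaine arrays was mostly wider than the difference between the groups. From the highest to the lowest cocaine array it was over the size of the difference in 37 of 38 genes (median range 0.32). The same held for the shock arrays in 28 (median range 0.21). A range grows with the number of arrays and is an unlike measure to a difference of means. The difference was larger than the pooled SD within the groups in 19 of the 38 genes. These counts were not made over all genes. Cocaine array 5 lay above the lowest shock array for 33 genes and cocaine array 6 for 23, against 2 for cocaine array 4 and 5 for cocaine array 7. Cocaine arrays 4 and 7 were thus mostly below the range of the shock arrays, and cocaine arrays 5 and 6 mostly not. In 9 genes an array of one group had exactly the value of an array of the other, as with Sox9 and Acsbg1. Ties are common in these data. Equal values on different arrays, within or between groups, occurred in 55.9% of all probe sets.

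**Figure D3:**
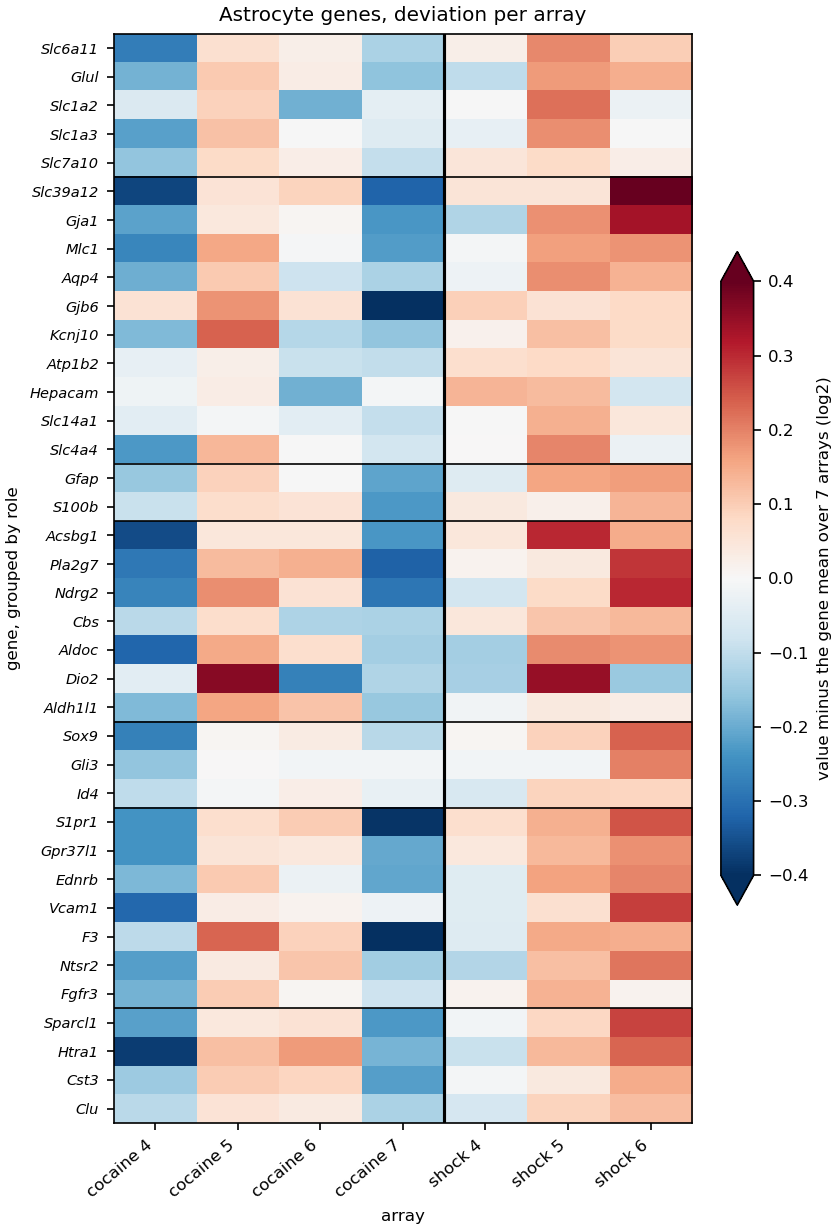
Deviation of each astrocyte gene from its mean over the 7 arrays (log2, colour scale clipped at its ends), with genes in rows by role and arrays in columns, cocaine left of the black line. Cocaine arrays 4 and 7 are below the mean in 37 and 38 of 38 genes, and cocaine array 5 is above it in 36.

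Other astrocyte genes followed the same arrays. A second list of 30 genes enriched in astrocytes, none of them among the 40, had 29 measured, of which 25 were lower, with a median of -0.14. The list was chosen with earlier results of these data known and rests on the same 7 arrays, so it is not separate support. Its genes of smallest unadjusted p were Slc15a2, a peptide transporter, Lgi4, Tril and the fatty acid desaturase gene Fads2, with differences of -0.20, -0.098, -0.20 and -0.18. Slc15a2 had 7.32, 7.48, 7.35 and 7.36 on cocaine arrays 4 to 7, against 7.52, 7.54 and 7.67 on shock arrays 4 to 6. Its groups did not overlap (limma, unadjusted p = 0.00936, adjusted p = 0.938). Of the 29 genes, it was the 1 with an unadjusted p under 0.05, where 1.57% of all genes were lower by that rule. It was also the 1 lower without overlap, against 1.11% of all genes.

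Genes that astrocytes induce when they become reactive to injury or inflammation had 27 of 30 measured and 14 above background. Of the 27, 20 were lower, with a median of -0.048. Vim, an intermediate filament that vascular cells also use, averaged 7.89 ± 0.17 over the 4 cocaine arrays and 8.19 ± 0.19 over the 3 shock arrays (mean ± SD, n = 4 and 3), a difference of -0.30 (limma, unadjusted p = 0.0440, adjusted p = 0.938). Lcn2 differed by 0.23 under the background level, Tm4sf1 by -0.20 and Serpina3n by -0.073.

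Markers of vascular cells differed in the same direction as the astrocyte genes. The list level, which is the mean over genes of the value minus the mean of the gene, was -0.19, 0.095, 0.0090 and -0.17 on cocaine arrays 4 to 7 for the 38 astrocyte genes. On shock arrays 4 to 6 it was -0.013, 0.13 and 0.14. The 12 endothelial markers, all lower in the cocaine group (median -0.24), had list levels of -0.10, -0.011, 0.015 and -0.29 on cocaine arrays 4 to 7, against 0.12, 0.080 and 0.19 on shock arrays 4 to 6. The 10 mural cell markers, also all lower (median -0.27, or -0.12 without shock array 6 and -0.45 without shock array 5), had list levels of -0.24, 0.079, 0.0061 and -0.38 on the cocaine arrays, against 0.11, -0.15 and 0.58 on the shock arrays. Cocaine arrays 4 and 7 were thus the lowest for all 3 lists, while shock array 5 was high for astrocyte genes and low for mural markers. Of the 12 endothelial markers, 5 were lower at an unadjusted p under 0.05 (limma, 1.57% of all genes). Lower without overlap were 3 (1.11% of all genes). Of the 10 mural markers, 0 were called by either rule. The endothelial marker Ly6c1 lay under background, and Egfl7 differed by -0.0068. Defining markers of both vascular types were above background, among them Slco1a4 (-0.48), Abcb1a (-0.26), Cdh5 (-0.30) and Flt1 (-0.30) of endothelium and Abcc9 (-0.40), Myh11 (-0.16), Rgs5 (-0.45) and Pdgfrb (-0.27) of mural cells. Their part in the astrocyte values was not tested.

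**Figure D4:**
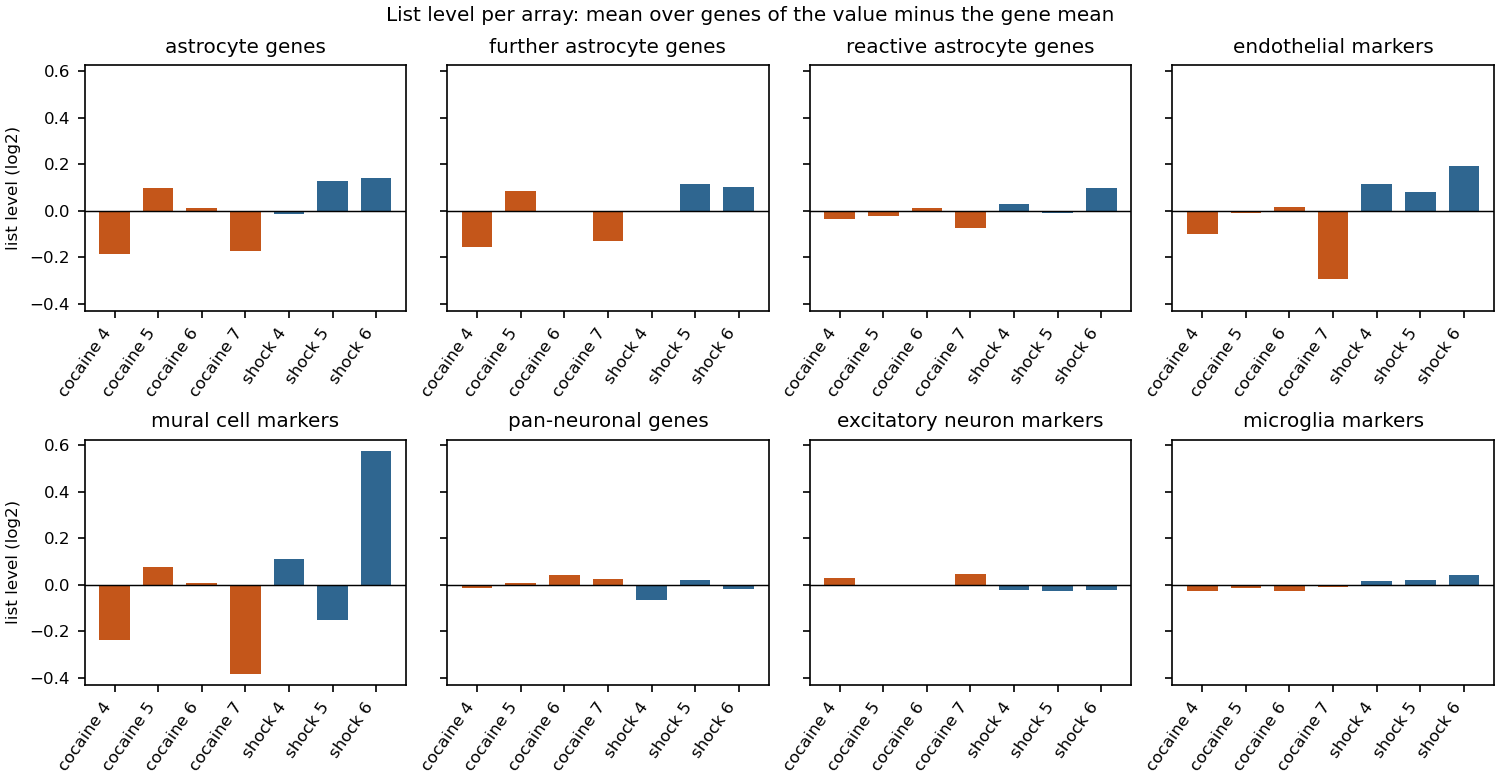
List level on each array (y axis, log2, mean over the genes of a list of the value minus the mean of the gene) for 8 gene lists, cocaine arrays left of shock arrays. The 38 astrocyte genes and the second astrocyte list are lowest on cocaine arrays 4 and 7, as are the endothelial and mural lists, while the pan-neuronal list stays between -0.065 and 0.041.

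Pan-neuronal and excitatory lists had small differences, while inhibitory markers were mostly lower in the cocaine group. Pan-neuronal genes were higher in 11 of 12 members, with a median of 0.029 (0.014 when shock array 4 was left out, 0.047 when shock array 5 was) and list levels of -0.013 to 0.041 on the cocaine arrays, against -0.065 to 0.020 on the shock arrays. Excitatory markers had a median of 0.014 with 8 of 11 higher, which ran from 0.0073 to 0.039 with 1 array left out. Inhibitory markers had one of -0.093 with 9 of 11 lower, which was -0.054 without shock array 6. The inhibitory list level was -0.090, 0.029, -0.011 and -0.072 on cocaine arrays 4 to 7. On shock arrays 4 to 6 it was -0.013, 0.018 and 0.14. This list was thus lowest on cocaine arrays 4 and 7 and highest on shock array 6, as the astrocyte genes were. Genes named in these lists by smallest unadjusted p included Nefl (0.060), Tubb3 (0.12), Grin2a (0.10), Slc17a7 (0.081), Sst (-0.19) and Lhx6 (-0.12). Microglia markers had a median of -0.048 (-0.027 without cocaine array 6) with 7 of 11 lower (Siglech -0.084, Cx3cr1 -0.18). The oligodendrocyte lineage had one of 0.057 with 9 of 13 higher (Olig2 -0.16, Cldn11 0.14), which became -0.0084 when cocaine array 7 was left out, and 0.10 when cocaine array 6 was. Immediate early genes were higher in 16 of 16 members, with a median of 0.49 that depended on single arrays. Leaving out shock array 4 gave 0.20, shock array 6 gave 0.33, shock array 5 gave 0.87 and cocaine array 5 gave 0.31. Their list level was highest on cocaine array 5 (0.55) and shock array 5 (0.46), where the astrocyte genes also lay above their means. That level was lowest on shock arrays 4 and 6 (-0.66 and -0.70), of which array 6 had the highest astrocyte level. In these lists 0 genes passed the correction (limma, smallest adjusted p = 0.938).

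Leaving out each array in turn kept the direction of 35 of the 38 astrocyte genes. The exceptions were Gjb6, Aldh1l1 and Dio2, whose values are given above. The size was less stable, since 29 of the 38 differences moved by over 1.5 times. Without cocaine array 6, the array that stood apart, 37 of 38 genes were lower and the median was -0.17. The median was -0.21 without cocaine array 5 or shock array 4, and -0.11 without cocaine array 4 or 7. Astrocyte genes lower at an unadjusted p under 0.05 numbered 9 without cocaine array 5, where 1.90% of all genes were lower by that rule, 6 without shock array 4 (1.43%) and 5 without cocaine array 6 (1.32%). There were 2 without shock array 6 (1.25% of all genes), 1 without cocaine array 4 (1.53%), 0 without cocaine array 7 (1.07%) and 0 without shock array 5 (1.91%). With 1 array left out, more of all genes separated the groups than with all 7. Astrocyte genes lower without overlap numbered 20 without shock array 4, against 4.25% of all genes, but 2 without shock array 5, against 4.87%, and 3 without shock array 6, against 3.95%. They numbered 7 without cocaine array 5 (2.94% of all genes) and 2 without each of cocaine arrays 4, 6 and 7 (2.40%, 1.89% and 1.96%).

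**Figure D5:**
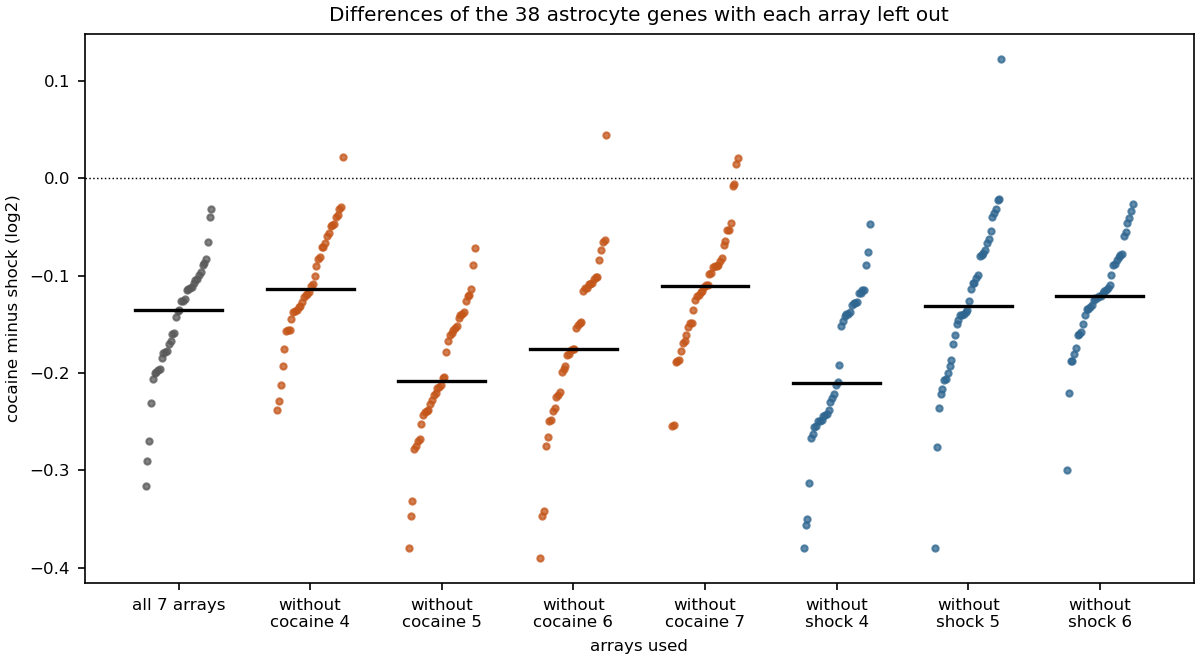
Differences of the 38 astrocyte genes (y axis, cocaine minus shock, log2) with all 7 arrays and with each array left out, 1 dot per gene and a black line at the median. The medians run from -0.21 to -0.11, and dots above 0 belong to Gjb6, Aldh1l1 and Dio2.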

How the data were processed

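The deposited table gives 41345 probe sets on 7 arrays, read as log2 values from their range of 1.12 to 13.44. Per the submitters' processing notes, Transcriptome Analysis Console was used. How probes were summarized, background-corrected and normalized is not stated in the labels or the file. Nearly equal quartiles point to a between-array normalization, so values are relative to other probe sets.

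Probe sets with 1 symbol in the platform annotation (23521) were used, 1814 named several genes and 16010 were unlisted. For each gene the probe set of highest mean over the 7 arrays was kept. All 7 arrays entered 1 two-sided limma fit without covariates (lmFit, then eBayes; limma 3.58.1, R 4.3.3), with Benjamini-Hochberg adjustment over 22180 genes at 0.05. The number of arrays limits the precision. On simulated data of these 22180 genes, 95% of 100 genes changed 2-fold and 77% of 100 changed 1.5-fold were recovered, with 15 unchanged genes called. The simulated noise was independent between genes. Changes as small as those of the astrocyte genes (median 1.10-fold) were not simulated, so their recovery is not known.

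Members, lists, and the naming rule were chosen with earlier results of these data known. Full array values were given for Aqp4, Gfap, Aldh1l1, Slc1a3, Slc1a2, Gja1, Sox9, S100b and the 8 genes of smallest unadjusted p, and up to 4 genes were named per further list. Slc39a12, Gjb6, Dio2, Sparcl1, F3, Gli3, Slc15a2 and Vim have values given in full or in part beyond that rule. They were chosen after their values were seen. Alternatives were each array left out, quantile normalization, median centring, dim genes left out, probe sets of a gene averaged, trend and robust moderation, array weights and a replicate block. Lists are described by counts and medians, without a set test.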

Additional observations from a re-analysis of the deposited data

Results flagged for a closer look

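Among the 4 cocaine arrays, a value was checked for a gap to its nearest neighbour that is large against the range of the group, for the 38 measured genes and 11 list levels. Of these 49 measures, 4 passed Dixon's 95% limit for 4 values, where chance passes about 5%, here 2.45 if the measures were independent, which genes on the same arrays are not. Cocaine array 5 was the highest for the potassium channel gene Kcnj10 (gap of 0.8508 of the range) and for the transsulfuration enzyme gene Cbs (0.8963). Cocaine array 4 was the lowest for the Hedgehog mediator gene Gli3 (0.9199) and for the adhesion molecule gene Vcam1 (0.8585). For Gli3, cocaine arrays 6 and 7 had the same value, which favours a large gap. The shock group, with 3 arrays, was not checked this way.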

How the results depend on the processing

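No gene passed an adjusted p of 0.05 in any of the 14 alternatives (limma, 688 genes at an unadjusted p under 0.05 with all arrays). The median difference of the 38 astrocyte genes stayed negative in all 14, from -0.21 to -0.11, with 36 to 38 genes lower, and was -0.12 after median centring, where 38.0% of all genes were lower, and -0.13 after quantile normalization. Astrocyte genes lower at an unadjusted p under 0.05 (3, against 1.57% of all genes) numbered 0 to 9 with 1 array left out (1.07% to 1.91% of all genes), 1 after median centring (0.978%), 5 with dim genes left out (1.99%), 5 with trend and robust moderation (1.56%) and 6 with the replicate block (1.91%). Those without overlap (2, against 1.11%) numbered 2 to 20 with 1 array left out (1.89% to 4.87% of all genes) and 1 after median centring (0.613%). With 1 array left out, Aldh1l1 ran from -0.089 to 0.022, Dio2 from -0.17 to 0.12 and Gjb6 from -0.22 to 0.021. Values above 0 were those of Aldh1l1 (0.022 without cocaine array 4, 0.014 without cocaine array 7 or with the replicate block), Dio2 (0.045 without cocaine array 6, 0.12 without shock array 5) and Gjb6 (0.021 without cocaine array 7 or with the replicate block). The cause was not tested.

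The median of the microglia markers (-0.048) ran from -0.065 to -0.027 with 1 array left out, and was -0.036 after quantile normalization, -0.028 after median centring and -0.084 with dim genes left out. That of the excitatory markers (0.014) ran from 0.0073 to 0.039, and was 0.034 after median centring and 0.068 with probe sets of a gene averaged. The reactive list had -0.10 with dim genes left out, and the oligodendrocyte list ran from -0.0084 to 0.10 with 1 array left out.

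Arrays with the same title number had weakly positive correlations of their deviations from the group means. These were 0.13, 0.064 and 0.16 for numbers 4, 5 and 6, under 0.1 for number 5. All other pairs among these numbers were negative, from -0.097 to -0.019. Deviations from a group mean cancel within the group, so a positive pair forces negative values among the other pairs of that array. The negative pairs are thus not a separate observation. What the number stands for is not given in the labels, and a shared batch was not tested. Each of shock arrays 4 and 6 correlated best with the cocaine array of its own number, and shock array 5 with cocaine array 7 (0.090). With the number as a replicate block, which leaves cocaine array 7 without a part in the estimate, the median was -0.11 and 36 of 38 genes were lower.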
